A study of Mus musculus with 6 samples.

Results

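The 608 intervals described here are TAF4b promoter peaks that both CUT&RUN replicates listed in mouse prospermatogonia, germ cells of the developing testis. They were chosen by the measured TAF4b peak calls themselves: a promoter peak of replicate 2 was kept where it shared at least 1 bp with a promoter peak of replicate 1 on chromosomes 1 to 19, X or Y. Of 738 promoter peaks in replicate 2, 608 met this rule (82.4%), and the 4 lists analysed hold 75330 intervals in all. Because both TAF4b lists chose the peaks, their number, overlap and scores are given as a description. H3K4me3 state, position within the promoter, sequence and gene function did not enter the rule, beyond the promoter class that it requires.

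All samples came from male E16.5 embryos of strain C57BL/6 with the Taf4b-wildtype genotype, so there was no group that lacks TAF4b. The embryos carried an Oct4-EGFP transgene (B6;129S4-Pou5f1tm2Jae/J), for which the mated mice were homozygous, and live GFP-positive cells were sorted from trypsin-dissociated gonads. Cells were treated with an antibody against TAF4b, against H3K4me3 or with IgG, with 2 samples each. The IgG samples were not analysed here, so no value was set against an antibody background. Nothing states whether the 2 replicates of an antibody came from separate embryos, so the spread between them may be technical.

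TAF4b is a gonad-enriched paralogue of TAF4, a subunit of TFIID, the complex that recognises core promoters and recruits RNA polymerase II. H3K4me3, trimethylated lysine 4 of histone H3, marks the nucleosomes that flank the start sites of active and poised genes, and the TAF3 subunit of TFIID binds it. Many promoters of broadly expressed genes lack a TATA box and instead carry CpG-rich sequence with GC boxes, which SP and KLF factors bind, or CCAAT boxes, which the trimeric factor NF-Y binds.

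Shared peaks often held GC boxes and CCAAT boxes and less often ETS sites (13.0%), and 7 of them are printed to show how these letters sit upstream of a start. Each line gives, in GRCm39 and read in the direction of the gene, the longest stretch of the replicate 2 peak that lies before the start of the named transcript and that no annotated exon covers. For each of the 3 motifs these are the up to 3 peaks ranked highest by the mean of the score percentiles in both TAF4b lists, among protein-coding genes outside chromosomes 18, X and Y whose stretch has at least 40 bases and holds the motif itself. Higher-ranked peaks that miss 1 of these conditions are not printed. Capitals mark every match on either strand to the GC box, spelled GGGCGG, to the box of NF-Y, whose letters are those of its name, and to the ETS site, spelled CCGGAAG. Matches on the other strand appear as the reverse complement.
Anp32e (chr3:95836409-95836556, plus strand): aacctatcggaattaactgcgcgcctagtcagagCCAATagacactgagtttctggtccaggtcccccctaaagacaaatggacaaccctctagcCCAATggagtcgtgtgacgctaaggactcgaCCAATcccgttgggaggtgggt
Khsrp (chr17:57338673-57338861, minus strand): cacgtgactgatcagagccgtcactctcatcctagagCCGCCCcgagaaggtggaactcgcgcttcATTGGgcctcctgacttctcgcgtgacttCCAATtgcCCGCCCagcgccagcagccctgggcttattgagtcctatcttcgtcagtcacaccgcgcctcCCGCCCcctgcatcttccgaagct
Hsd17b12 (chr2:93988420-93988548, minus strand): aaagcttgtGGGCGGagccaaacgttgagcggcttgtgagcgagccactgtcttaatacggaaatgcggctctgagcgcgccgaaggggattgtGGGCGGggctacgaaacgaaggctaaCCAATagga
Mast3 (chr8:71245459-71245647, minus strand): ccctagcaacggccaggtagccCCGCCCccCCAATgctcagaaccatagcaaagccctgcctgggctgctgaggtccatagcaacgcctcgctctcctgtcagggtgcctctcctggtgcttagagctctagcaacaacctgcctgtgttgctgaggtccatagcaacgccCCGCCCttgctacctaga
Lrif1 (chr3:106628889-106629043, plus strand): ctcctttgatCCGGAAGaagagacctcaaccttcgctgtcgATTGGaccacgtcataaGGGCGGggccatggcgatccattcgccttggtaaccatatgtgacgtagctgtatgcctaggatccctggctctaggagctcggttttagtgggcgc
Uba6 (chr5:86320666-86320854, minus strand): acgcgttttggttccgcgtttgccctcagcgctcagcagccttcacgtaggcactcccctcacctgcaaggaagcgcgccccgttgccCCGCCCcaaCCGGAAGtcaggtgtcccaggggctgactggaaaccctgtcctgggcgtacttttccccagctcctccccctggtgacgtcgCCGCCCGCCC
Chchd3 (chr6:33037212-33037381, minus strand): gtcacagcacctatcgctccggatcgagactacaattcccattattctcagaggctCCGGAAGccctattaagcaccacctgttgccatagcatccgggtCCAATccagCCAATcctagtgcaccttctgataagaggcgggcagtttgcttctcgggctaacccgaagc

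The Anp32e stretch, from a gene for a chaperone of histone H2A.Z, held 3 CCAAT boxes and no GC box, and its CCAAT boxes began at -114, -53 and -22 bp from the named start. The Khsrp stretch, from a gene for an RNA-binding protein of splicing and mRNA decay, held 3 GC boxes and 2 CCAAT boxes. The Hsd17b12 stretch, from a gene for an enzyme of fatty acid elongation, held 2 GC boxes, at -120 and -35 bp, and 1 CCAAT box at -9 bp. The Mast3 stretch, from a kinase gene, held 2 GC boxes and 1 CCAAT box, all more than 400 bp upstream. Each of the other 3 stretches held 1 ETS site. In Lrif1 it came with 1 GC box and 1 CCAAT box, in Uba6, which encodes a ubiquitin-activating enzyme, with 3 GC boxes, and in Chchd3, which encodes a mitochondrial inner membrane protein, with 2 CCAAT boxes. These matches describe the letters and do not show that a factor was bound.

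The TAF4b lists differed in size. Replicate 1 held 5754 promoter peaks and replicate 2 held 738, so 5146 and 130 promoter peaks were not shared. Within the shared pairs the peak centres lay a median of 32 bp apart, at most 164 bp, and 248 pairs (40.8%) were within 20 bp. The overlap had a median of 134 bp, and in 258 pairs (42.4%) the whole replicate 1 peak lay inside the replicate 2 peak. The shortest overlaps were 2 bp at Kmt5c, a histone H4 methyltransferase gene, 7 bp at L3hypdh and 9 bp at Cnot1. The replicate 2 promoter peaks that missed by least lay 8 bp (Arhgap35), 9 bp (Rps6ka5) and 13 bp (Tmem184c) from a replicate 1 promoter peak. Most of the 130 that were not shared were no near misses, since 110 lay over 1000 bp from any promoter peak of replicate 1.

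The peak score is the authors' value, of unstated scaling, and is used only to order peaks within 1 list. Shared peaks ranged from 40.5 to 182.2 in replicate 2 (median 60.7) and from 10.9 to 73.5 in replicate 1 (median 30.8). The peaks that were not shared had medians of 52.6 and 15.9. In the replicate 1 list the median percentile of shared peaks was 91.4, with 334 (54.9%) among the top 10% of that list and 11 below its middle. The percentiles in the 2 lists had a Spearman correlation of 0.466 over 608 peaks, which is a description, since all points come from the same 2 libraries.

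**Figure D1:**
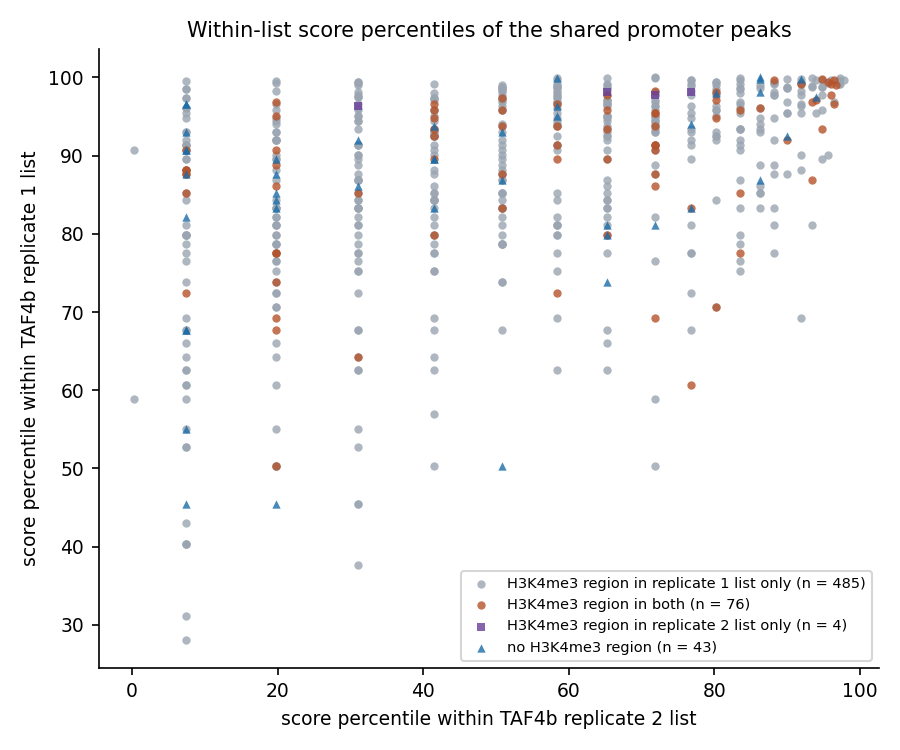
Score percentile of each shared TAF4b promoter peak within the replicate 2 list (horizontal axis) and the replicate 1 list (vertical axis), with colour and shape for H3K4me3 state. Most peaks sit high on the vertical axis, with a median percentile of 91.4, and spread along the horizontal one.

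Highest by the mean of both score percentiles were Anp32e (replicate 2 score 182.2, replicate 1 score 51.6) and Khsrp (174.1 and 63.5). Hsd17b12 (141.7 and 53.6), Add3, which encodes a protein of the membrane skeleton (174.1 and 46.7), and Stip1, which encodes a co-chaperone that links Hsp70 to Hsp90 (141.7 and 46.7), followed. Srgap2, a gene for a GTPase-activating protein (125.5 and 56.6), Pabpn1, for the nuclear poly(A)-binding protein (133.6 and 45.7), Hspa8, for the constitutive Hsp70 (121.4 and 55.6), and Mast3 (121.4 and 46.7) were also among the 10 highest. Each of these 9 promoters overlapped an H3K4me3 region of replicate 1, and Srgap2, Pabpn1 and Mast3 also overlapped one of replicate 2.

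Of the 608 peaks, 604 carried a transcript found in GENCODE M39, and these named 603 genes. Protein-coding genes accounted for 568 peaks and 567 genes, and 30 peaks named long noncoding RNA genes, such as C130036L24Rik and Snhg1, the host gene of small nucleolar RNAs. Both peaks of a pair named the same gene in 603 pairs. Ppp1r10, whose product targets protein phosphatase 1 in the nucleus, was the only gene with 2 shared peaks, on chromosome 17 at 36227262 to 36227450 and 36227699 to 36227887, inside 1 H3K4me3 region of 3830 bp. At 98 peaks the nearest annotated start belonged to another gene than the one named, so the gene assignment there depends on the annotation. At the Snhg1 peak the nearest start was that of Slc3a2, at 3 bp, against 411 bp from the Snhg1 start.

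Within the promoter class that the rule requires, most TAF4b centres lay just upstream of the start site. That class is set by distance to a start, so position and the share upstream are not independent of the rule. The median distance of the peak centre to the nearest transcription start site (TSS), as deposited, was -70 bp in replicate 1 (quartiles -119 and -26) and -68.5 bp in replicate 2 (quartiles -119.5 and -23). The centre lay upstream in 527 (86.7%) and 525 (86.3%) of 608 peaks, and within 100 bp of the start in 405 (66.6%) and 416 (68.4%). Promoter peaks that were not shared had medians of -48 bp in replicate 1 and -89 bp in replicate 2, on either side of the shared ones. Of these unshared peaks of the same class, 80.1% and 86.9% lay upstream. Measured to the start of the transcript named in the promoter class, both medians of the shared peaks were -99 bp.

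Farthest upstream were Sp4, which encodes a GC box factor (-703 bp in replicate 2 and -618 bp in replicate 1), and Phf21a, a gene for a histone-reading subunit of a demethylase complex (-681 and -683 bp). Zdhhc5, which encodes a palmitoyltransferase (-592 and -597 bp), Xkr6 (-510 and -485 bp) and Mast3 (-472 and -419 bp) came next. This choice and order are by the replicate 2 distance, and the order in replicate 1 differed. All 5 overlapped an H3K4me3 region of replicate 1. Farthest downstream was the peak that names the histone gene H2bc9, at 294 and 304 bp, where the nearest start is that of its neighbour H3c7. Phtf2 (105 and 117 bp, nearest to Tmem60), Rhbdd1, for a rhomboid protease (78 and 79 bp), Mpc2, for a mitochondrial pyruvate carrier subunit (78 and 57 bp), and Brpf1, for a subunit of histone acetyltransferase complexes (75 and 218 bp), followed by the replicate 2 distance, and the order in replicate 1 differed. The Brpf1 centres lay 143 bp apart, against the median of 32 bp.

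H3K4me3 intervals at the same promoters had median centres closer to the start and wider quartiles. The rule requires the promoter class, which is set by distance to a start, of the TAF4b peaks but not of the H3K4me3 regions, so position is not independent of it. The H3K4me3 centres had a median of -6 bp over 561 promoters in replicate 1 (quartiles -126 and 82) and -27 bp over 80 promoters in replicate 2 (quartiles -125.25 and 35.75). The library medians averaged -69.25 ± 1.06 bp for TAF4b and -16.5 ± 14.8 bp for H3K4me3 (SD, n = 2 libraries each). Both TAF4b libraries lay upstream of both H3K4me3 libraries. The difference, TAF4b minus H3K4me3, was -52.75 bp, and the two-sided exact permutation p was 0.333, the smallest that 2 libraries against 2 can give, so this design cannot pass a threshold of 0.05. Measured to the start of the named transcript, the difference was -25.5 bp. With H3K4me3 regions of the promoter class alone, a restriction added after the data were seen, the H3K4me3 medians were -22 bp (487 promoters) and -34 bp (75 promoters), and the difference was -41.25 bp.

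**Figure D2:**
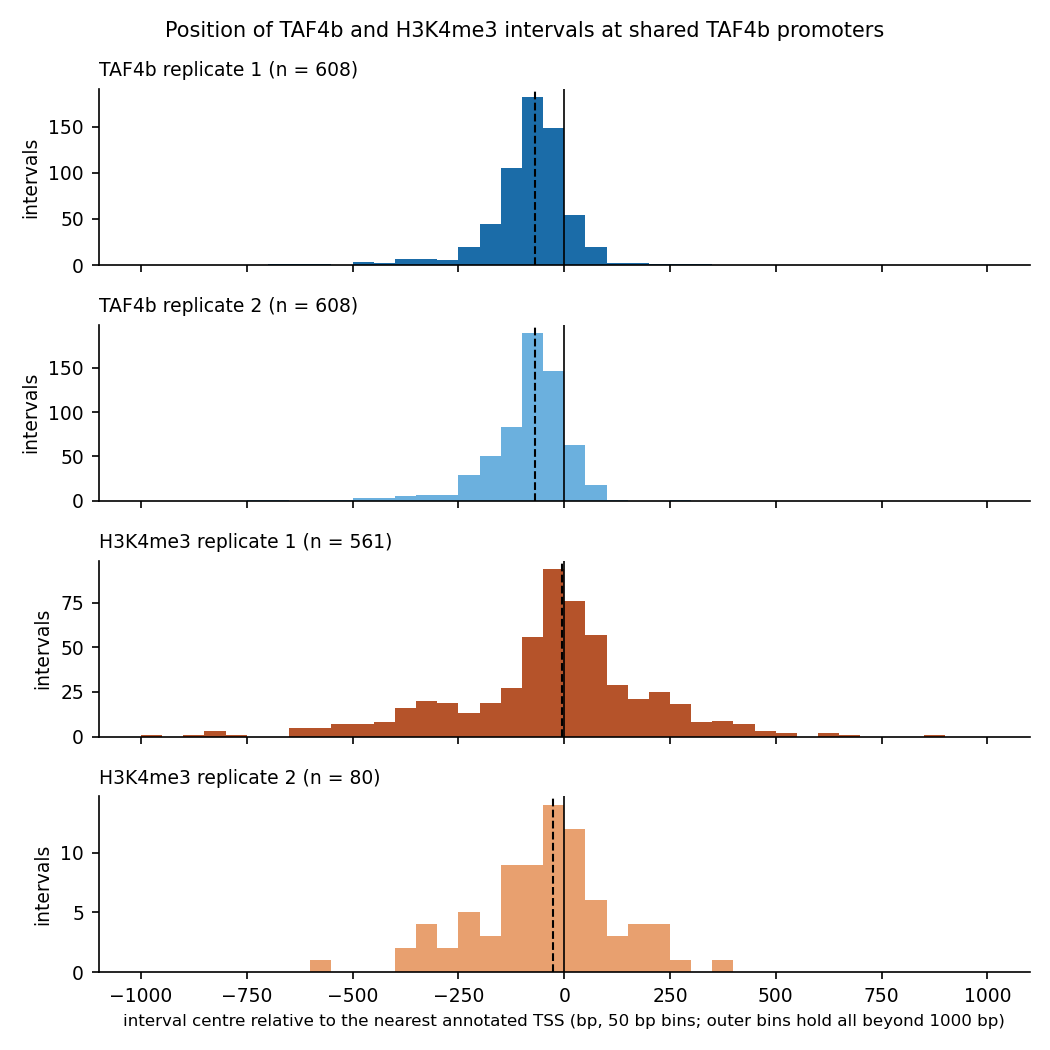
Distance of interval centres to the nearest annotated TSS at the shared promoters, in bp, for each of the 4 libraries, as the number of intervals per 50 bp. Solid lines mark the TSS and dashed lines the library medians of -70, -68.5, -6 and -27 bp from top to bottom.

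Most shared promoters carried H3K4me3 in the larger list and few in the smaller one. In replicate 1, which holds 64891 regions, 561 of 608 shared peaks (92.3%, 95% Wilson interval 89.9 to 94.1) overlapped a region. In replicate 2, which holds 1730 regions, 80 of 608 (13.2%, 10.7 to 16.1) did. Replicate 1 promoter peaks that were not shared overlapped at 85.6% (84.6 to 86.5) and 7.85% (7.15 to 8.62), below the shared peaks in both lists with intervals apart. Replicate 2 promoter peaks that were not shared overlapped at 90.8% (84.6 to 94.6) and 13.1% (8.33 to 19.9), with intervals that include the values of the shared peaks. These intervals cover counting error only, since peaks of 1 library are not replicates, and the level in replicate 1 depends on the length of its list: with its 1730 highest-scoring regions alone, 11.5% of the shared peaks overlapped one.

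**Figure D3:**
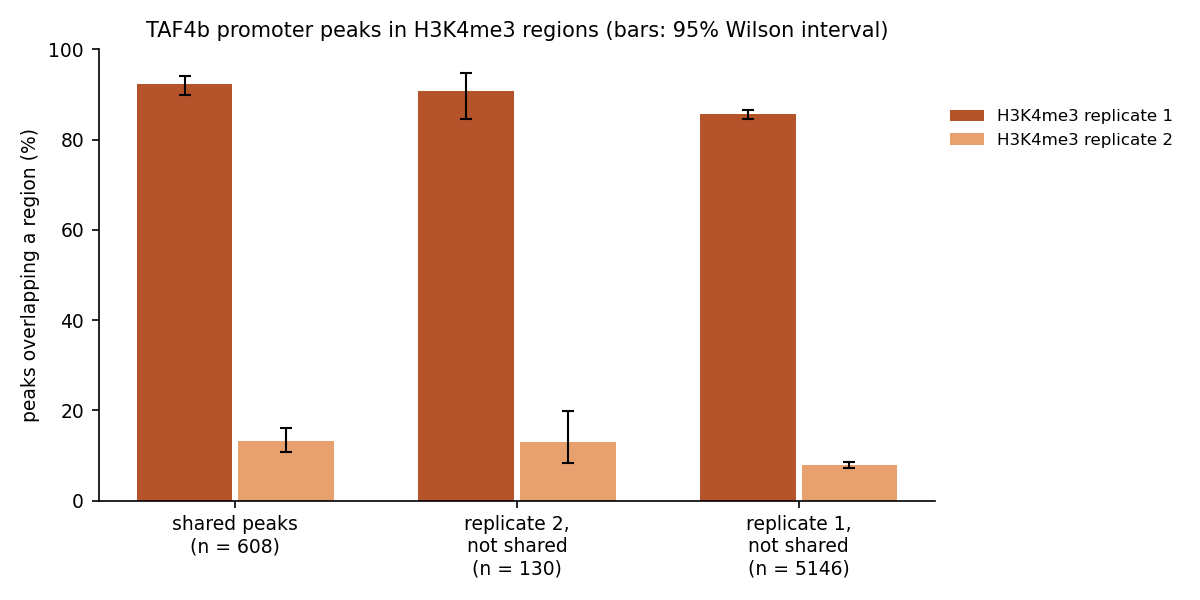
Share of TAF4b promoter peaks that overlap an H3K4me3 region of replicate 1 (dark) or replicate 2 (light), for shared peaks and for those found in 1 list, with 95% Wilson intervals. The shared peaks stand at 92.3% and 13.2%, and the replicate 1 peaks that were not shared at 85.6% and 7.85%.

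Across both H3K4me3 lists, 76 shared promoters had a region in each, 485 in replicate 1 only, 4 in replicate 2 only (among them Camsap1, Zfp787 and Pnkd, named after their values were seen) and 43 in neither. The replicate 1 regions at shared promoters were wide, with a median of 1629 bp (quartiles 1225 and 2106), against 1197 bp for all 13453 promoter regions of that list and 1497.5 bp at replicate 1 peaks that were not shared. Regions at peaks were taken by overlap and in any class (promoter class in 487 of 561 at shared peaks), unlike the set of all promoter regions. The scores of the replicate 1 regions at shared promoters stood at a median percentile of 88.5, against 74.9 for all promoter regions and 83.9 at peaks that were not shared. In replicate 2 the widths were 626 bp and 500 bp for all promoter regions, and the percentiles 59.2 and 46.4. At promoters that also had a replicate 2 region, the replicate 1 region had a median of 1814.5 bp, against 1580 bp at promoters in replicate 1 alone, and the widths of the 2 groups overlapped.

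The TAF4b peak usually sat well inside the wider replicate 1 regions. The whole peak lay inside the replicate 1 region at 524 of 561 promoters, a median of 755 bp from its upstream edge and 866 bp from its downstream edge. It was upstream of the region's centre at 335 promoters (59.7%). In replicate 2, 54 of 80 peaks lay wholly inside the region, at medians of 269 and 334 bp from its edges, and 42 (52.5%) were upstream of its centre. Highest among promoters with both H3K4me3 lists were Srgap2 (regions of 3262 and 927 bp), Pabpn1 (2322 and 500 bp), Mast3 (1225 and 801 bp) and the zinc finger gene Zfp574 (1960 and 500 bp). Nubp2, which encodes an iron-sulfur cluster assembly factor (2049 and 858 bp), and Sap130, for a subunit of a histone deacetylase complex (1759 and 714 bp), followed.

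The 47 shared promoters with no replicate 1 region were mostly beside one: 34 lay within 500 bp, and the median gap was 324 bp. Highest by mean score percentile were Fam76b, with a gap of 190 bp, Sp1, the founding GC box factor, with a gap of 73 bp, the pseudogene Gm28439 and Hexim2, whose product inhibits the elongation factor P-TEFb, with a gap of 56 bp. The long noncoding RNA gene Gm17705 (114 bp) and Ppp2r5a, for a regulatory subunit of protein phosphatase 2A (796 bp), were also among them. Their median GC content was 64.0%, against 62.4% at the other shared peaks. At 7 promoters the nearest region was over 5000 bp away. These were Sptan1, for spectrin (29351 bp), Dcaf15, Scoc, Rhoa, for a small GTPase of the cytoskeleton (15054 bp), Alkbh7, Arhgap19 and Gm28439 (6790 bp), and apart from Gm28439 they were named after their values were seen.

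The Gm28439 peak stands apart in sequence. It lies on chromosome 1 at 24651750 to 24651938, its replicate 1 score of 73.5 was the highest of the shared peaks, and its GC content was 30.2%. Of its 159 stretches of 31 bases, 136 (85.5%) occur in the mitochondrial genome, and no other shared peak had any such stretch. Reads from this locus and from mitochondrial DNA could therefore be alike, and their part in this peak was not tested.

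Base composition and motifs were compared in windows of 189 bp, the width of a replicate 2 peak. Shared peaks had a median GC content of 63.0% and a ratio of observed to predicted CpG of 0.828, against 56.1% and 0.529 at all 21757 protein-coding promoters, taken 68 bp upstream of the start. Replicate 1 peaks that were not shared had 65.1% and 0.845, so their GC content was above that of the shared peaks. No test was run on motif shares, and intervals cover counting error only.

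The GC box GGGCGG occurred in 440 of 608 shared peaks, 72.4% (68.7 to 75.8), against 37.7% of all promoters and 63.5% (62.2 to 64.8) of replicate 1 peaks that were not shared. The CCAAT box occurred in 364, 59.9% (55.9 to 63.7), against 31.2% of all promoters and 39.1% (37.8 to 40.4) of replicate 1 peaks that were not shared. For both motifs the shared peaks stood above both comparison sets. In 200 bp windows centred on the start in place of the peak, the excess of CCAAT over all promoters was 15.1 percentage points, against 28.7 in the peaks. Replicate 2 peaks that were not shared stood at 68.5% and 53.8%, with intervals that include or overlap those of the shared peaks. Both letters together occurred in 259 shared peaks (42.6%), against 12.04% of all promoters, and neither in 63 (10.4%), against 43.2%.

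Many peaks held several CCAAT boxes. At least 2 occurred in 208 shared peaks (34.2%), against 8.74% of all promoters, and at least 3 in 83 (13.7%), against 2.13%. Neighbouring boxes in 1 peak lay a median of 42 bp apart (quartiles 31 and 61, 314 pairs). The most were 5, at the core histone gene H2ac11 and at Cenpx, which encodes a protein of the kinetochore and of DNA repair. Stip1, Zfp574 and Hspa5, which encodes the main Hsp70 of the endoplasmic reticulum, held 4. The midpoints of CCAAT matches lay at a median of -80 bp (quartiles -144 and -38) and those of GC boxes at -68.5 bp (quartiles -130 and -18.5) from the nearest TSS, and 89.7% and 83.9% lay upstream.

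The CCAAT share was highest at the peaks with the highest TAF4b scores, and the GC box share had no such order. With shared peaks ordered by their mean score percentile and divided into 3 groups of near-equal size, CCAAT occurred in 70.0%, 60.9% and 48.8% from highest to lowest, and the GC box in 72.4%, 66.3% and 78.3%. Their median GC content was 61.4%, 61.9% and 64.6%, and their median position -85, -73 and -51 bp. H3K4me3 of replicate 1 overlapped 93.6%, 93.1% and 90.1%. The scores that formed these groups also chose the peaks, so this is a description.

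The ETS site CCGGAAG occurred in 13.0% (10.6 to 15.9) of shared peaks, against 8.13% of all promoters, and the NRF1 site GCGCANGCG in 9.70% (7.598 to 12.3), against 6.55%. Replicate 1 peaks that were not shared stood higher in both, at 17.3% (16.3 to 18.3) and 15.5% (14.5 to 16.48). The E-box CACGTG occurred in 8.22% (all promoters 5.7%), the E2F site TTCCCGC in 5.92% (3.97%), and the cAMP response element TGACGTCA in 4.28% (2.12%). The YY1 site AAGATGGCG occurred in 1.65% (0.561%) and the ZNF143 site ACTACAATT in 1.32% (0.45%). In replicate 1 peaks that were not shared, the E-box (10.1%), E2F (6.69%), cAMP (5.15%) and YY1 (2.45%) shares were above those of the shared peaks, with overlapping intervals. Other motifs were rarer in the shared peaks than at promoters in general: the TATA box TATAAA occurred in 2.80% (8.46%), the AP-1 site TGANTCA in 2.14% (4.62%) and the RFX site GTTGCCA in 1.97% (2.73%), the last with an interval of 1.13 to 3.42 that includes the promoter share. The TATA box and the AP-1 site were also rare in replicate 1 peaks that were not shared, at 2.565% and 1.904%, and in replicate 2 peaks that were not shared they stood at 2.31% and 5.38% (AP-1 in 7 of 130, 2.63 to 10.7). All letters were searched on both strands, and overlaps between different motifs were allowed. Of the 12 motifs, 26 shared peaks held none and 258 held 2 kinds, and Chchd3, printed above, held 5 kinds, the most.

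**Figure D4:**
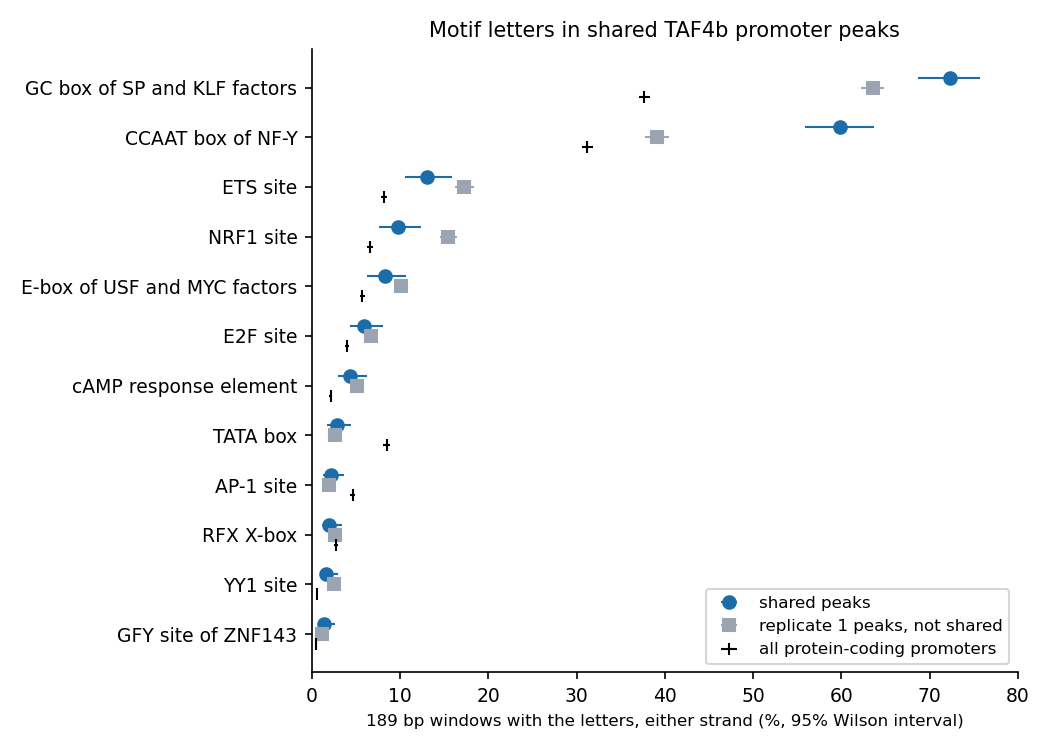
Share of 189 bp windows that hold each motif's letters on either strand, in shared peaks (circles), replicate 1 peaks that were not shared (squares) and all protein-coding promoters (ticks), with 95% Wilson intervals. The GC box and the CCAAT box reach 72.4% and 59.9% in shared peaks, above both other sets.

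Genes of factors known for these motifs were among the shared promoters themselves. In lists written after the shared peaks were seen, and so of no weight as support, 6 of 26 SP and KLF genes had a shared peak (Sp1, Sp4, Klf5, Klf6, Klf7 and Klf10; 23.1%, 11.03 to 42.1), against 2.61% of all protein-coding genes, as did Nfya of the 3 NF-Y genes and Jun, Jund and Atf4 of 18 AP-1 and ATF/CREB genes. Zfp143, which encodes mouse ZNF143, had scores of 93.1 in replicate 2 and 40.7 in replicate 1. The highest of these was Jun, with 105.3 and 61.0. Of the SP and KLF promoters, Sp1 and Klf6 had no H3K4me3 region of replicate 1 over the peak, and the Klf7 promoter had one in both lists.

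Shared peaks were also common between divergent genes. A protein-coding neighbour started within 1000 bp on the opposite strand for 68 of 567 shared genes (11.99%, 9.57 to 14.9), against 5.04% of all protein-coding genes, 5.601% of genes with an H3K4me3 promoter region of replicate 1 and 7.04% (6.32 to 7.84) of genes with only unshared replicate 1 peaks. At these promoters 1 peak can serve either gene. Highest by score were Srgap2 with Fam72a (starts 485 bp apart), Nubp2 with Spsb3 (328 bp), Rsrc2 with Kntc1 (228 bp) and Fam76b with Cep57 (596 bp). Zfp654 with Cggbp1 (266 bp) and Cnot9 with Usp37 (162 bp) followed. The gap at Nfya and its neighbour Oard1 was 10 bp.

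Gene functions were described with 26 lists of genes, set against the 2.61% of all protein-coding genes that had a shared peak. Several lists were matched by symbol, so a few entries do not have the function of the list. Among the 9569 protein-coding genes with an H3K4me3 promoter region of replicate 1, this share was 4.67%. No test was run on a list, and list shares carry 95% Wilson intervals. Over all listed genes, the highest shares were those of ribosomal proteins, splicing factors and hnRNP proteins, chaperones, translation factors and aminoacyl-tRNA synthetases. This order depends on the setting. Among genes with an H3K4me3 promoter region, kinetochore genes (12.5%) stood above aminoacyl-tRNA synthetases (8.70%). For promoter peaks of replicate 1 alone, proteasome genes (54.9%) stood above chaperones (41.6%).

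Of 87 cytosolic ribosomal protein genes, 12 had a shared peak (13.8%, 8.07 to 22.6), and 56 had a promoter peak in replicate 1, which 22.7% of all protein-coding genes had. Rps12, for a protein of the small subunit, had scores of 72.9 and 35.2 (replicates 2 and 1), and Rps3, for another, had 72.9 and 27.8. All 12 overlapped H3K4me3 of replicate 1, and Rps3 also overlapped that of replicate 2. Of 136 splicing factor and hnRNP genes, 14 had a shared peak (10.3%, 6.23 to 16.54). Highest were Khsrp, Hnrnpc, for a protein that packages nascent transcripts (93.1 and 47.6), Lsm4, for a small nuclear RNA-binding protein (101.2 and 28.3), and Rbm14, for a paraspeckle protein (89.1 and 32.8). All 14 overlapped H3K4me3 of replicate 1.

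Of 101 heat shock and chaperone genes, 10 had a shared peak (9.90%, 5.47 to 17.3). They were led by Stip1, Hspa8, Hspa5 (117.4 and 47.6) and Ahsa1, an activator of Hsp90 (76.9 and 31.3). The Hspe1 promoter was the only one of the 10 without H3K4me3 of replicate 1. Of 87 genes listed by symbol as translation initiation and elongation factors, 8 had a shared peak (9.20%, 4.73 to 17.1), and 1 of these, Eef2kmt, encodes a methyltransferase that modifies eEF2 and no factor itself. Eif1, for a factor of start codon choice, had scores of 113.4 and 40.2, Eif4a1, for the helicase of initiation, 85.0 and 63.5, Eef2, for the translocation factor, 93.1 and 22.8, and Eif4g2 68.8 and 34.2. Of 35 aminoacyl-tRNA synthetase genes, 3 had one (Aars1, Lars1 and Nars1; 8.57%, 2.96 to 22.4). The intervals of these 5 lists lay above the 2.61% of all protein-coding genes.

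Ubiquitin genes and chromatin genes followed. Of 108 genes for ubiquitin conjugation, cullins and deubiquitinases, 9 had a shared peak (8.33%, 4.45 to 15.1), with Ube2f and Uba3, both of the NEDD8 pathway, Uba6 and Ube2d3 highest. Of 127 chromatin modifier and remodeller genes, 10 had one (7.87%, 4.33 to 13.9). Highest were Kat6b, for an acetyltransferase (89.1 and 33.7), Ing3, for a reader of H3K4me3 (64.8 and 43.7), and Kdm4b and Kdm1b, for histone demethylases (60.7 and 30.3, 56.7 and 38.7). Only 7 of these 10 promoters overlapped H3K4me3 of replicate 1, against 92.3% of all shared peaks. Among listed chromatin genes with an H3K4me3 promoter region of replicate 1, 5 of 74 had a shared peak (6.76%), against 4.67% of all such genes. Of 228 membrane trafficking genes, 12 had one (5.26%, 3.04 to 8.97), 8 of them small GTPases of the Rab family such as Rab5b (101.2 and 46.2) and Rab30 (97.2 and 57.1).

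Among the histone genes listed, 7 had a shared peak (6.80% of the list, 3.33 to 13.4), and each of these 7 peaks held a CCAAT box, against 59.9% of all shared peaks. Among genes that an H3K4me3 promoter region names the direction turned, with 1 of 33 histone genes (3.03%) against 4.67%. That count takes in only 1 of the 7 genes, although a region overlapped each of the 7 peaks, because it requires a promoter-class region that names the gene itself. They were H2bc4 (85.0 and 32.8), H2ax, the histone of DNA damage signalling (76.9 and 44.7), H2bc9, H2ac11, H2ac25, H3f3b and H4c1. Copies of histone genes are near-identical and closely packed, so counts at them are uncertain where reads fit more than 1 copy. All 7 peaks overlapped an H3K4me3 region of replicate 1, which is 2685 bp wide at H2bc4 and 4248 bp at H4c1.

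The intervals of the next lists included the share of all genes. DNA repair genes had 4 of 69 (5.80%), among them Msh3, Msh5 and Parp2. That list is matched by symbol and leaves out repair genes with a shared peak such as Blm, Rfwd3 and Pms2, which were noticed after the peaks were seen, so its share is that of the listed symbols. Cell cycle genes had 6 of 121 (4.96%), kinetochore genes 2 of 27 (Cenpx and Zwint; 7.41%) and proteasome genes 2 of 51 (3.92%). Some entries match these lists by symbol only: Cdc5l encodes a splicing factor, Cdc42se2 an effector of a small GTPase, and Psme3ip1 an interactor of a proteasome activator and no subunit. Among the cell cycle genes Orc6, for the origin recognition complex, had 81.0 and 20.3, and Cdk20 76.9 and 17.4. Oxidative phosphorylation had 3 of 90 (3.33%): Uqcrq of complex III (101.2 and 47.1), Atp5f1b of the ATP synthase (101.2 and 40.2) and Cycs, cytochrome c (60.7 and 45.7). The Uqcrq peak was centred at -661 bp from the named Uqcrq start and nearest to the start of Gdf9, at 72 bp. The DEAD and DEAH box helicase list had Ddx17 and Dhx38 of 52 (3.85%), and among genes with an H3K4me3 promoter region it had 3.70%, below 4.67%.

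Zinc finger genes had 13 of 492 (2.64%, 1.55 to 4.47), close to the 2.61% of all genes, and among genes with an H3K4me3 promoter region 3.96%, below 4.67%. The 13 include Zbtb8os, which matches by symbol and encodes archease, no zinc finger protein. Zfp574 (117.4 and 49.6) and Zfp654 (113.4 and 36.2) were highest. General transcription factor, polymerase and Mediator genes had 3 of 120 (2.50%, 0.854 to 7.09). The shared ones were Supt5, for a factor of elongation and pausing (64.8 and 24.8), Polr1d, for a subunit that polymerases I and III share (60.7 and 25.3), and Taf1, for the largest subunit of TFIID (44.5 and 17.9). Centrosome and cilium genes had 3 of 118 (2.54%), nuclear transport genes 1 of 53 (Kpnb1, importin beta), solute carriers 5 of 377 (1.33%) and mitochondrial ribosomal protein genes 1 of 79 (Mrps14, 1.27%). Kinesin and dynein genes had 0 of 64, with an upper Wilson limit of 5.66%, and olfactory and vomeronasal receptor genes 0 of 1545, with a limit of 0.248%. With the promoter peaks of replicate 1 alone, which 22.7% of all genes had, several of these lists turned to above all genes: general transcription factors with 53.3%, nuclear transport with 52.8%, centrosome and cilium genes with 38.98%, kinesins and dyneins with 34.4% and mitochondrial ribosomal proteins with 29.1%. With replicate 2 alone, general transcription factors stood 0.212 percentage points above all genes.

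**Figure D5:**
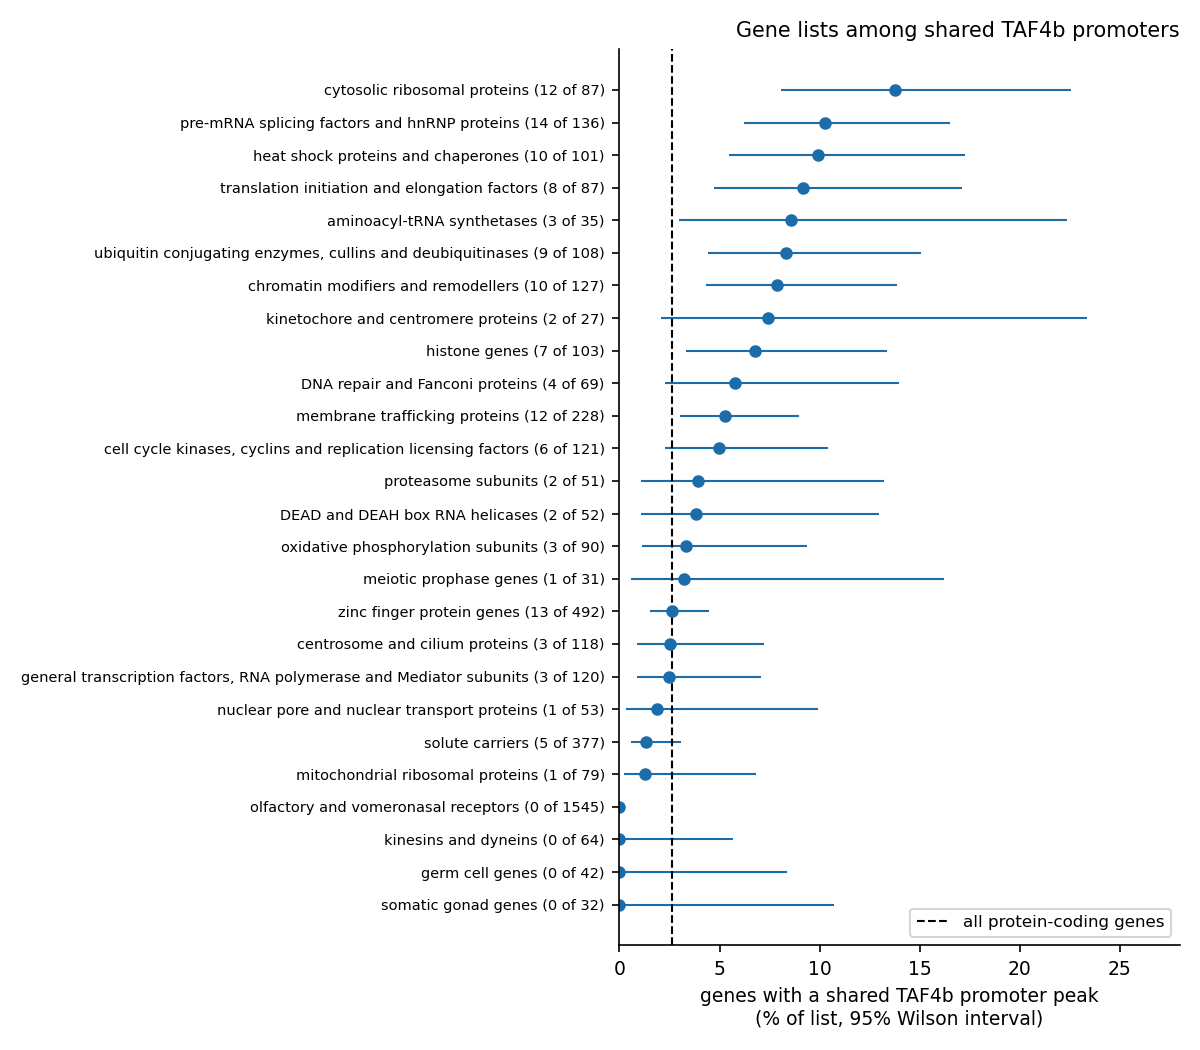
Share of each gene list with a shared TAF4b promoter peak, in percent, with 95% Wilson intervals, and with counts beside the names. The dashed line is the 2.61% of all protein-coding genes, and ribosomal protein genes stand highest at 13.8%.

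Further groups were noticed only after the shared peaks were seen, so their counts have no weight as support. They stand beside 2.61% of all protein-coding genes and 4.67% of those with an H3K4me3 promoter region. Of 35 genes of the unfolded protein response and of folding in the endoplasmic reticulum, 10 had a shared peak (28.6%, 16.3 to 45.1). They include the chaperone genes Hspa5, Calr (105.3 and 38.2) and Hyou1 (52.6 and 24.8), the sensor genes Ern1 (64.8 and 25.8) and Atf6b (48.6 and 29.3), and Atf4 (56.7 and 29.8). Of 25 sterol synthesis genes, 4 had one (16%, 6.403 to 34.7), among them Fdps (97.2 and 43.7), Hsd17b7 (89.1 and 26.8) and Mvd (52.6 and 26.3), and each of the 4 peaks held a CCAAT box, against 59.9% of all shared peaks. Of the 3 serine synthesis genes, Psph (72.9 and 34.7) and Psat1 (52.6 and 24.3) had one (66.7%, 20.8 to 93.9). All 16 of these peaks overlapped H3K4me3 of replicate 1.

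None of the 42 genes of the germ cell list had a shared peak. TAF4b replicate 1 listed promoter peaks at 22 of them (52.4%, 37.7 to 66.6), among them Ddx4, Dazl, Dnd1, Piwil2, Mael and Sall4, and replicate 2 at 0. Over all protein-coding genes these shares were 22.7% and 3.12%, so the list stood above all genes in replicate 1 and below them in replicate 2. The list of Sertoli, Leydig and other somatic gonad genes holds 32, of which replicate 1 listed 1 (3.12%, 0.554 to 15.7) and replicate 2 listed 0. The larger H3K4me3 list had promoter regions at 25 of the 42 (59.5%) and at 16 of the 32 (50%), including Sox9, Wt1 and Gata4, against 44% of all protein-coding genes. The upper limits for shared peaks were 8.38% of germ cell genes and 10.7% of somatic genes, so both include the 2.61% of all genes. Of 31 meiotic prophase genes only Msh5, a gene of crossover formation, had a shared peak (48.6 and 34.7), with centres 137 bp apart. Among genes with an H3K4me3 promoter region the meiotic share was 4.55%, against 4.67% of all such genes. A peak shows binding and not expression, so these counts describe the lists and do not measure the purity of the sort.

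The shared peaks were spread over all autosomes, from 15 on chromosome 15 to 52 on chromosome 7. The X chromosome held 9 (1.48%), against 2.69% of replicate 1 promoter peaks and 4.51% of protein-coding genes, and the Y chromosome held 0, with 2 promoter peaks in replicate 1. The X-linked peaks included those of the long noncoding RNA BC065397 (85.0 and 38.2), Gk, for glycerol kinase (60.7 and 29.8), Rpl10 (60.7 and 27.8), and Piga, for an enzyme of GPI anchor synthesis (56.7 and 21.8). The peak that names BC065397 was nearest to the start of Morf4l2, at -110 bp, against -426 bp from the BC065397 start. Further X-linked peaks were at Hnrnph2 (48.6 and 22.3), the histone demethylase gene Kdm6a (44.5 and 19.4), Taf1 and Jade3 (44.5 and 13.9). Of the 9, all but Kdm6a and Jade3 overlapped H3K4me3 of replicate 1, and 0 overlapped that of replicate 2.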

How the data were processed

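CUT&RUN was analysed from the 4 deposited lists of TAF4b peaks and H3K4me3 regions, called per sample. Per the submitters' processing notes, reads were handled with bcl2fastq 2.20, Trim Galore 0.5.0, FastQC 0.11.5, Bowtie2 2.3.0, SAMtools 1.9 and HOMER 4.10 on GRCm39. Per the file headers, H3K4me3 regions were annotated with HOMER. The TAF4b lists name no build, and 98.9% and 99.2% of their transcripts (replicates 1 and 2) matched GENCODE M39. Their deposited distances equalled those from GENCODE M39 within 1 bp for 57.9% and 52.4% of the peaks compared, and within 50 bp for 80.2% and 79.5%. GRCm39 is therefore an inference for these lists. Caller thresholds are not given in the sources used here. The peak score is the authors' deposited score, used only to rank within 1 list. Coordinates, distances and classes are as deposited. Read totals were not given, so depth is unknown.

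Overlap meant at least 1 bp. Computation used Python 3.11.15, pandas 2.3.3, scipy 1.17.1 and pysam 0.24.0, with sequence from GRCm39 and names from GENCODE M39. Of the code, only the overlap step was tested on simulated intervals. Samples were grouped by their titles. Peaks are not replicates, so shares carry 95% Wilson intervals and only library medians were tested, by an exact permutation test. The labels do not pair same-numbered libraries. Their Pearson correlation was 0.084 over 76 promoters, but these come from the same 4 libraries, so it cannot decide whether the libraries were paired. Named genes were the 10 highest by mean score percentile, up to 4 per list, the highest 6 with and without H3K4me3, position extremes, X-linked genes, divergent pairs and overlap extremes; some genes that these rules select are not reported here. The peaks, lists and motifs were chosen with earlier results of these data known, and 6 lists were added after the peaks were seen. Alternatives changed overlap, list length, windows, backgrounds and libraries.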

Additional observations from a re-analysis of the deposited data

How the results depend on the processing

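The number of shared peaks was 504 with overlap of at least 50% of the replicate 2 peak, 414 with centres within 50 bp and 352 in the higher-scoring 50% of each list. It was 738 to 5754 when 1 TAF4b library alone set the promoters. The replicate 1 H3K4me3 share, 92.3%, was 89.6% for overlap of at least 50% of the peak and also for its centre, 97.9% within 500 bp, 85.9% in the higher-scoring 50% of regions, 80.1% in promoter regions alone and 11.5% in as many top regions as replicate 2 holds. Over the promoter peaks of 1 TAF4b library it ranged from 86.3% to 92.0%. The replicate 2 share, 13.2%, was 9.21% in the higher-scoring 50% of regions and 8.34% to 13.1% over the promoter peaks of 1 library. The position difference of -52.75 bp was the same with the replicate block (-64 and -41.5 bp within same-numbered libraries), -25.5 bp from the named starts, -41.25 bp with promoter-class H3K4me3 regions alone (added after the data were seen) and -63.25 to -42.25 bp without 1 library. No alternative could bring its exact permutation p below 0.333.

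Of 48 motif alternatives 1 turned the direction: the YY1 site in 100 bp windows, at -0.088 percentage points against all promoters. Around the start in place of the peak, the excess of CCAAT was 15.1 percentage points, against 28.7. Of 96 gene list alternatives 11 turned the direction. Against genes with H3K4me3 promoter regions these were histone (-1.64 percentage points), helicase (-0.968), meiotic (-0.126) and zinc finger genes (-0.714). With the promoter peaks of 1 TAF4b library in place of the shared ones (replicate 2 first, replicate 1 second) they were centrosome (-0.579 to 16.3), general transcription factor (0.212 to 30.6), nuclear transport (-1.23 to 30.1), mitochondrial ribosomal (-1.86 to 6.395), kinesin (-3.12 to 11.7) and germ cell genes (-3.12 to 29.7). The cause was not tested. The unequal lengths of the lists limit every share given here, as does the unknown depth.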
